A study of Mus musculus with 8 samples.

Results

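The guidance genes examined here are 47 genes that encode semaphorins, ephrins, Slits and netrins (26 ligands) and their neuropilin, plexin, Eph, Robo, Unc5 and Dcc receptors (21 receptors), out of 18193 genes with a probe set of their own on the array. They were chosen by name, with earlier results of these data known. Each gene was read from its probe set with the highest mean log2 signal over the 8 arrays. The cells were mouse adult fibroblasts (MAFs) grown from the peritoneal fascia of mice with a floxed Rb gene, and all of them carried p53DD, a dominant negative fragment that disables p53, delivered by retrovirus into a selected and pooled population. Cre Recurred cells had received an adenovirus with GFP and Cre, which deletes an exon of Rb, had then been exposed to cisplatin (CDDP) for 24 h and had grown out again. Cre Naïve cells carried the same deletion and were untreated. GFP Recurred cells had received an adenovirus with GFP alone, kept RB, and had passed through the same exposure and outgrowth, while GFP Naïve cells kept RB and were untreated. Neither the dose for the arrays nor the age of the mice is given in the labels. Each population was measured on 2 arrays that the labels call biological replicates, 8 arrays in all, and every value below is a log2 signal from the Robust Multichip Average (RMA) as deposited.

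Guidance cues were named for steering axons, and they also set adhesion, migration and cell spacing in connective tissue and vessels. Secreted class 3 semaphorins act mainly through neuropilins joined to plexins, whereas membrane-bound semaphorins bind plexins directly. Ephrins sit on the surface of one cell and activate Eph receptor tyrosine kinases on its neighbour, with signals passing both ways. Slits bind Robo receptors, and netrins bind Dcc and the Unc5 family.

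Rb1 itself had log2 signals of 4.98 and 5.45 in Cre Recurred, 6.21 and 5.72 in Cre Naïve, 8.21 and 8.78 in GFP Recurred and 7.98 and 8.07 in GFP Naïve cells, lower on all 4 Cre arrays than on any GFP array. The sources used here do not say whether its probe set lies in the deleted exon. Of 12 fibroblast marker genes, 12 had a mean signal above that of the median probe set (5.4), against 1 of 8 endothelial, 2 of 8 macrophage and blood cell and 1 of 6 epithelial markers. The other lists had 5 of 8 muscle, 4 of 6 Schwann and nerve, 4 of 10 mesothelial and 2 of 5 adipocyte markers above it. The fibroblast markers averaged 10.5 and 11.4 on the Cre Recurred arrays, 11.8 and 11.5 on the Cre Naïve arrays, 11.6 and 11.8 on the GFP Recurred arrays and 11.6 and 11.3 on the GFP Naïve arrays. The 10 mesothelial markers averaged 4.74 and 4.76 in Cre Recurred, 4.73 and 4.53 in Cre Naïve, 4.82 and 4.76 in GFP Recurred and 4.88 and 4.79 in GFP Naïve cells. Cre Naïve replicate 2 was closer to Cre Recurred replicate 2 (Pearson r across probe sets 0.992) than to Cre Naïve replicate 1 (0.985), which touches several results below. Cre Recurred replicate 2 had 0.990 with Cre Recurred replicate 1, for which it was the closest array. The 2 GFP Recurred arrays were closest to each other (0.995). Some other arrays did not group by label. Cre Naïve replicate 1 was closer to GFP Naïve replicate 1 (0.994) than to Cre Naïve replicate 2. GFP Naïve replicate 2 was closer to GFP Recurred replicate 1 (0.991) than to GFP Naïve replicate 1 (0.987). Array medians lay between 5.37 and 5.41.

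Of the guidance genes, 37 of 47 had a mean above the median probe set, 23 of 26 ligands and 14 of 21 receptors. The 10 dimmer members were Sema3d, Sema4a, Sema4d, Plxnc1, Epha3, Epha4, Epha5, Epha7, Robo1 and Robo2. No detection calls were used here, so a low signal is not read as absence. Both Robo receptors of Slits were among these dim members, with signals of 3.77 to 4.05 for Robo1 and 2.60 to 3.05 for Robo2 over all arrays. The ligands Slit2 and Slit3 had signals of 9.96 to 11.31 and 8.35 to 11.43. Because probe sets bind with different strength, these signals do not rank one gene above another.

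**Figure D1:**
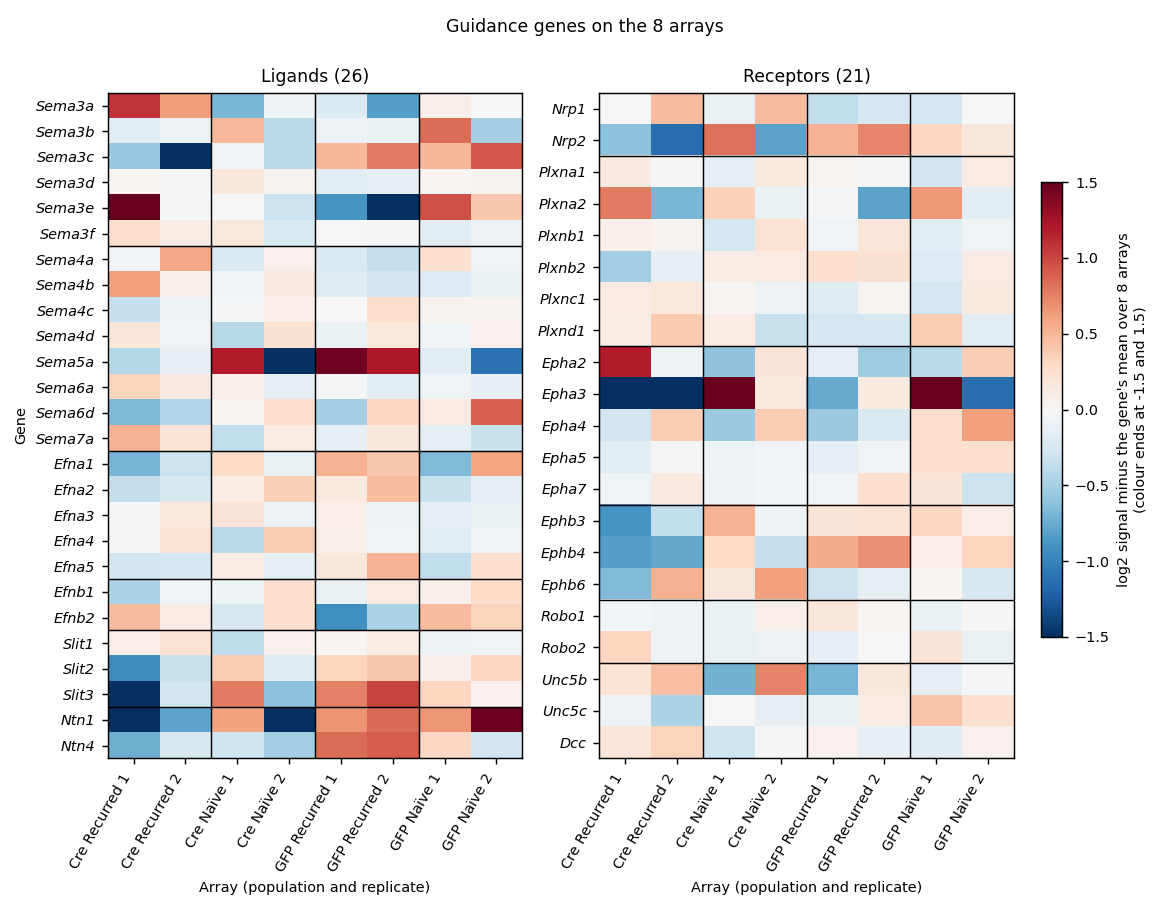
Log2 signal of each of the 47 guidance genes (rows, ligands left and receptors right, black lines between families) on each of the 8 arrays (columns, in the order Cre Recurred, Cre Naïve, GFP Recurred, GFP Naïve), as the difference from the mean of that gene over the 8 arrays, with colours ending at -1.5 and 1.5. Slit2, Slit3, Ntn1, Ephb3 and Ephb4 are blue on both Cre Recurred arrays, and Slit3, Ntn1 and Nrp2 are also blue on Cre Naïve replicate 2.

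The recurred cells without and with RB were compared first. At the thresholds of the study (1.5-fold and an adjusted p under 0.25), 13 of 47 members were called between Cre Recurred and GFP Recurred cells, where 11.4% of all genes and 16.2% of the genes with a mean above the median probe set were called. Of these, 10 were ligands (10 of 26) and 3 were receptors (3 of 21). Sema3a, Sema3e and Efnb2 were higher in Cre Recurred cells, and Sema3c, Slit2, Slit3, Ntn1, Ntn4, Efna2, Efna5, Nrp2, Ephb3 and Ephb4 were lower. Thus 3 members were higher, beside 4.81% of all genes, and 10 were lower, beside 6.55% of all genes. At the stricter threshold, 1.5-fold and an adjusted p under 0.05, only Ephb4 was called among the members (1.1% of all genes), and "rose" and "fell" are kept for that threshold. Because the members were chosen with earlier results of these data known, their share of calls is not read as an excess. Whether the share of ligands called differs from that of receptors was not tested. The adjusted p values come from limma with 1 mean per population over all 8 arrays and a Benjamini-Hochberg adjustment over 45037 probe sets, and they measure the spread between 2 arrays per population. With 2 arrays on each side, 0.333 is the smallest two-sided p that exact permutation allows.

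The number of calls depended on which recurred array was left out. Without GFP Recurred replicate 2 there were 0 calls among the members (0.126% of all genes), without Cre Recurred replicate 1 there was 1, Sema3c (0.89%), without GFP Recurred replicate 1 there were 2, Sema3a and Ephb4 (1.13%), and without Cre Recurred replicate 2 there were 14 (14% of all genes). Leaving out any 1 of the naïve arrays gave 14, beside 11.9% to 12.3% of all genes. The call of Ephb4 at the stricter threshold was lost without any 1 Cre Recurred, GFP Recurred or GFP Naïve array, with adjusted p values from limma up to 0.35, while its log2 fold change stayed between -1.48 and -1.35. The call was also lost with the replicate number as a block (adjusted p = 0.067 from limma).

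**Figure D2:**
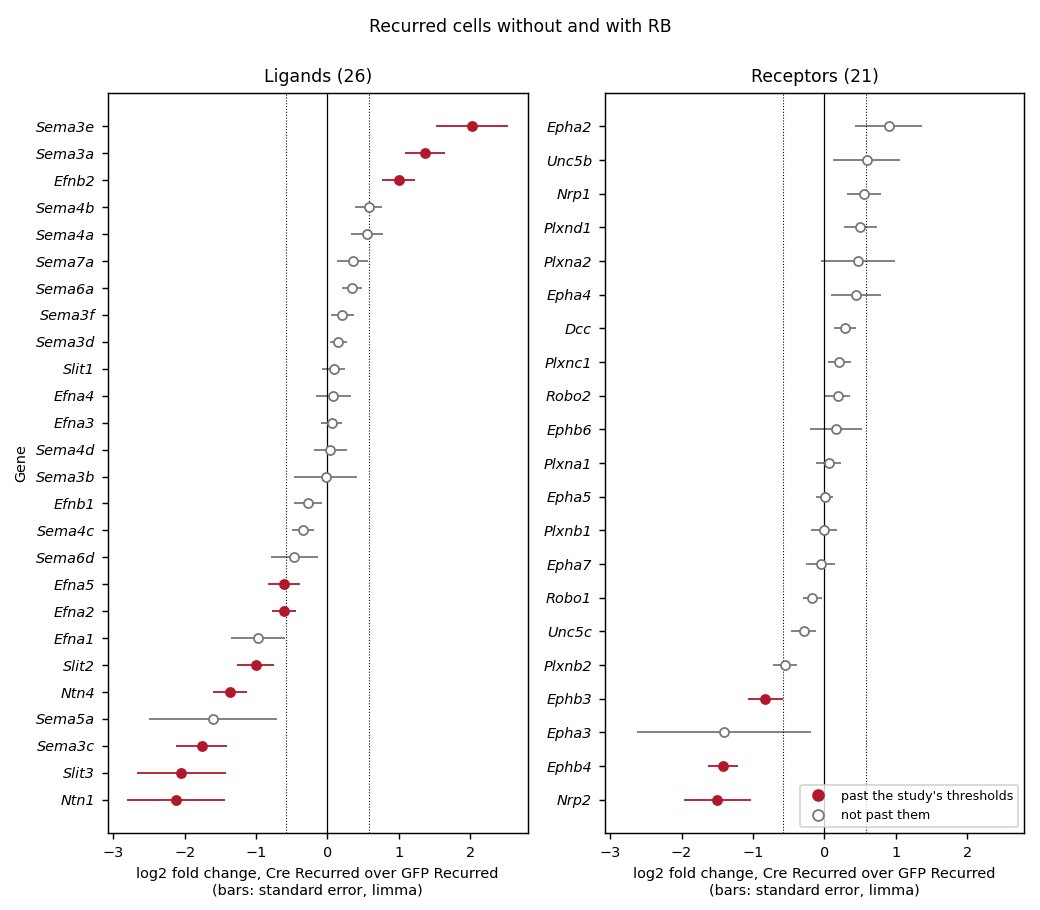
Log2 fold change of Cre Recurred over GFP Recurred cells for the 26 ligands (left) and 21 receptors (right), 1 gene per row ordered by size, with the standard error from limma as bars and n = 2 arrays per population. Filled red points passed the thresholds of the study, dotted lines mark 1.5-fold, and the points run from -2.12 (Ntn1) to 2.03 (Sema3e).

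Among the ephrins and their receptors, Ephb4, a receptor tyrosine kinase best known from venous endothelium, fell in Cre Recurred relative to GFP Recurred cells. Its signals were 7.10 and 7.16 in Cre Recurred cells, against 8.48 and 8.61 in GFP Recurred cells. Cre Naïve cells had 8.19 and 7.58 and GFP Naïve cells 8.02 and 8.24. Both Cre Recurred arrays lay below the other 6 arrays. Between the recurred populations it differed by a log2 fold change of -1.42 (SE 0.21, adjusted p = 0.047 from limma). Its preferred ligand was higher at the study's thresholds. Efnb2, which encodes the transmembrane ephrin-B2, had 9.52 and 9.18 in Cre Recurred, against 8.13 and 8.58 in GFP Recurred cells, and 8.81 and 9.28 in Cre Naïve, against 9.52 and 9.38 in GFP Naïve cells. The Efnb2 signal was thus low on both GFP Recurred arrays and the Cre Recurred arrays overlapped with those of both naïve populations. The log2 fold change between the recurred populations was 1.0 (SE 0.23, adjusted p = 0.098). Of its other 3 probe sets, 2 gave 1.10 and 0.98 and were called too, and the dimmest gave 0.07.

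Ephb4 and Efnb2 are a receptor and its ligand that differed in sign, so the 250 bases before their transcription starts are shown, from RefSeq on GRCm38.p6 and written along the gene's strand, with each CG dinucleotide in capitals. The Ephb4 stretch lies at chr5:137349859-137350108 on the plus strand and the Efnb2 stretch at chr8:8661243-8661492 on the minus strand.
Ephb4: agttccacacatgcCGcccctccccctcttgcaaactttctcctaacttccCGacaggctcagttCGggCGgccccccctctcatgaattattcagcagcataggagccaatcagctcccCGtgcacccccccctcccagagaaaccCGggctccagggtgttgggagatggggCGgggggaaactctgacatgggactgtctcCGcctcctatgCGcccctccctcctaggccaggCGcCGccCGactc
Efnb2: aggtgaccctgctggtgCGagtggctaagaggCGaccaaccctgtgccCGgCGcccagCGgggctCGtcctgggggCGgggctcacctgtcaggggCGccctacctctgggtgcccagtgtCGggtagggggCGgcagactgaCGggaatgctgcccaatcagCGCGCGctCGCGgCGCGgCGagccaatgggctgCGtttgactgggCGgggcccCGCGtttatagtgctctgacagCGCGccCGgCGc
The Ephb4 stretch held 12 CG dinucleotides, a number that 33.5% of 32851 mouse promoters of the same length reach, and the Efnb2 stretch held 27, which 8.56% reach.

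Ephb3, a second receptor of B ephrins, had 7.21 and 7.73 in Cre Recurred, against 8.30 and 8.31 in GFP Recurred cells. Cre Naïve cells had 8.63 and 8.02 and GFP Naïve cells 8.41 and 8.20, so that both Cre Recurred arrays were again the lowest of the 8. Between recurred populations the log2 fold change was -0.83 (SE 0.25, adjusted p = 0.155). Ephb6, which lacks kinase activity, differed by 0.16 (adjusted p = 0.88). Of the A-class ligands, which are tethered by a lipid anchor, Efna2 had 6.57 and 6.69 in Cre Recurred, against 7.08 and 7.39 in GFP Recurred cells (log2 fold change -0.61, SE 0.16, adjusted p = 0.128). Cre Naïve cells had 7.04 and 7.29 and GFP Naïve cells 6.60 and 6.78, so the Cre Recurred arrays overlapped with the GFP Naïve arrays. Its second, dimmer probe set gave 0.02, and with the probe sets averaged the call was lost. Efna5 had 7.78 and 7.79 in Cre Recurred, against 8.22 and 8.56 in GFP Recurred cells, and 8.16 and 7.91 in Cre Naïve, against 7.67 and 8.29 in GFP Naïve cells. Its log2 fold change of -0.60 (SE 0.23, adjusted p = 0.241) lay just inside both thresholds. Efna1, with -0.97, lay just outside (adjusted p = 0.261), and Efna3, Efna4 and Efnb1 gave 0.06, 0.08 and -0.27. Of the A-class receptors, 0 of 5 were called. Epha2 had a log2 fold change of 0.90 (SE 0.47, adjusted p = 0.402) and Epha3 one of -1.40 (SE 1.22), its GFP Naïve arrays alone being 7.74 and 3.72.

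**Figure D3:**
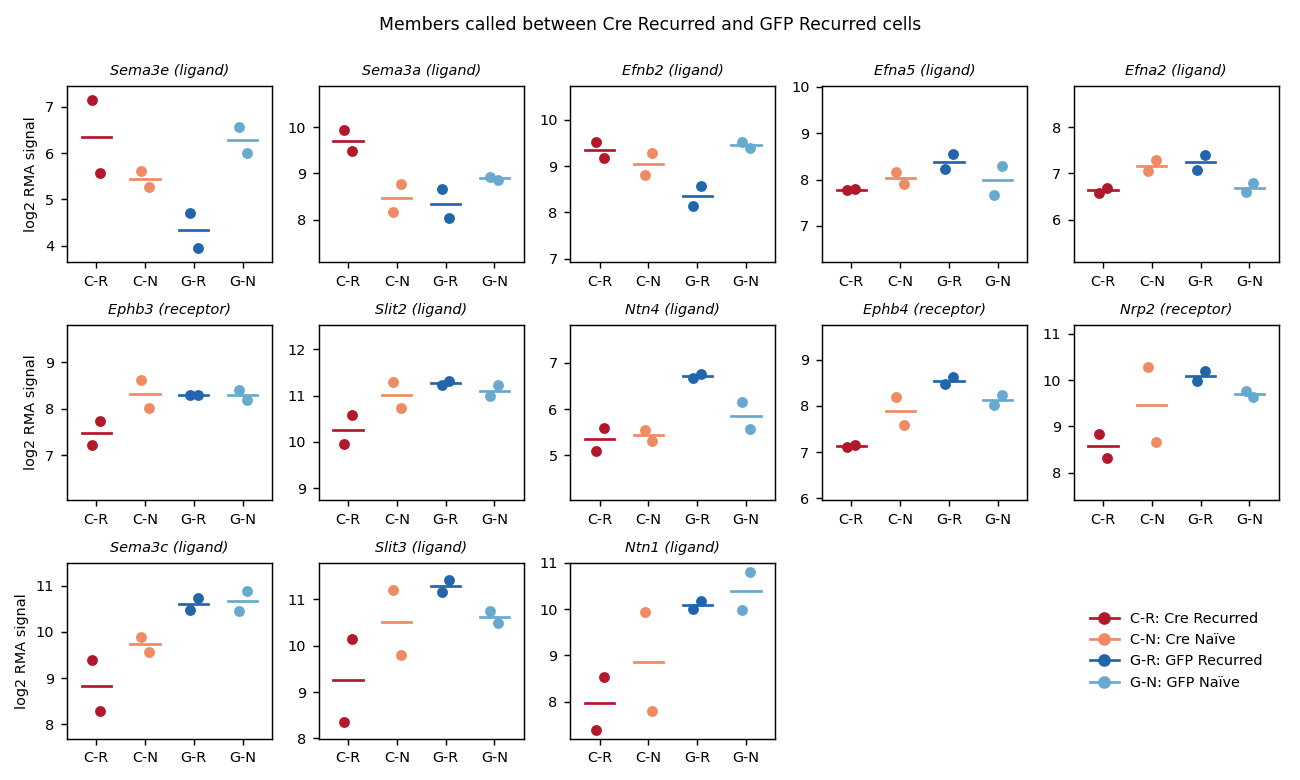
Log2 RMA signal (vertical axes, all of the same span) of the 13 members called between Cre Recurred and GFP Recurred cells, ordered by log2 fold change, with 1 point per array and a line at each population mean. In each panel the pair of Cre Recurred points and the pair of GFP Recurred points do not overlap. The Cre Naïve arrays of Slit3, Ntn1 and Nrp2 lie far apart.

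Semaphorins were called in both directions. Sema3a, a secreted repellent of axons and migrating cells that acts through neuropilin-1, had 9.94 and 9.49 in Cre Recurred, against 8.66 and 8.03 in GFP Recurred cells. It had 8.17 and 8.78 in Cre Naïve, against 8.93 and 8.86 in GFP Naïve cells, so both Cre Recurred arrays were above all the others. The log2 fold change between recurred cells was 1.37 (SE 0.28, adjusted p = 0.081), and both other probe sets of Sema3a, at 1.64 and 1.08, were called as well. Sema3e, a ligand that can bind plexin D1 without a neuropilin, had 7.14 and 5.58 in Cre Recurred, against 4.72 and 3.95 in GFP Recurred cells. Its signals were 5.61 and 5.28 in Cre Naïve, against 6.57 and 6.01 in GFP Naïve cells, and both GFP Recurred arrays were the lowest of the 8. The log2 fold change was 2.03 (SE 0.51, adjusted p = 0.112), and 1.24 without Cre Recurred replicate 1. Sema3c, another secreted semaphorin, which binds both neuropilins, was lower. It had 9.39 and 8.29 in Cre Recurred, against 10.47 and 10.74 in GFP Recurred cells, and 9.89 and 9.57 in Cre Naïve, against 10.46 and 10.89 in GFP Naïve cells. All 4 Cre arrays lay below all 4 GFP arrays, and the log2 fold change between recurred cells was -1.76 (SE 0.35, adjusted p = 0.075).

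Sema3d, Sema3a, Sema3e and Sema3c follow each other on chromosome 5, with 0, 3 and 15 other protein-coding genes starting between them in turn. The 3 called genes of this stretch differ in direction. Their promoter sequences are shown as examples of differing CG content (250 bases before the start, CG in capitals, plus strand, GRCm38.p6). They lie at chr5:13396534-13396783 for Sema3a, chr5:14025026-14025275 for Sema3e and chr5:17574566-17574815 for Sema3c.
Sema3a: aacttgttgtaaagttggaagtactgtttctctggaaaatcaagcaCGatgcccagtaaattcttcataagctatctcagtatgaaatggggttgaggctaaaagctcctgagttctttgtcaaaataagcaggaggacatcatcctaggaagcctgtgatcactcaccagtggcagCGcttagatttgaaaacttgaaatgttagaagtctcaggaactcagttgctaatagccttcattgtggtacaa
Sema3e: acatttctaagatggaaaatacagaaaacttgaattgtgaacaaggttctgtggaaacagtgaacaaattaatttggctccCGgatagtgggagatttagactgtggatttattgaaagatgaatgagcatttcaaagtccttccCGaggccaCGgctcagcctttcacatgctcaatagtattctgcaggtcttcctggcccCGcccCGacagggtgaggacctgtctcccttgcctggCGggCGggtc
Sema3c: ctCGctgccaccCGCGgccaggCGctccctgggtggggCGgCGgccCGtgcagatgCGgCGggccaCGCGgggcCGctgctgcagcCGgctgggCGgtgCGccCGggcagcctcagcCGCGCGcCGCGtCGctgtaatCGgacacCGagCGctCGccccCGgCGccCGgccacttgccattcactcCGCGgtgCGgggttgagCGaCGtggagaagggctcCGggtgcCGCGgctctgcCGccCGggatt
The counts were 2 CG dinucleotides for Sema3a, 7 for Sema3e and 39 for Sema3c, numbers reached by 81.2%, 46.3% and 1.56% of all promoters. Over the 12 called members with a promoter in the table the counts ran from 2 to 39 with a median of 25.5, against a median of 6 over all promoters and 16 over the 54 promoters of 40 members. A motif of the kind bound by E2F factors, TTTNNCGC on either strand, was found in 0 of these 54 stretches and in 4.28% of all promoters, which says only that those letters are not in this window. The 13 called members all had means above the median probe set. Promoters of genes with a like signal were not compared, so a link between CG count and being called was not tested. A link between CG count and the direction of the difference was not tested either. DNA methylation was not measured on these arrays.

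Of the other semaphorins, Sema3b, Sema3d and Sema3f gave log2 fold changes of -0.02, 0.15 and 0.21 between the recurred populations, and 0 of 8 membrane semaphorins were called. Sema3f had 3 probe sets, all above the median probe set, of which only the brightest was positive. The lowest gave -1.29, and 0 of the 3 were called. Sema4b, at 0.58 (1.49-fold, adjusted p = 0.197), missed the fold threshold narrowly. Sema4a, Sema6a and Sema7a gave 0.55, 0.34 and 0.35, and Sema4c, Sema4d and Sema6d gave -0.34, 0.04 and -0.46. Sema5a had 7.21 and 7.52 in Cre Recurred, against 9.10 and 8.84 in GFP Recurred cells (log2 fold change -1.60, SE 0.90, adjusted p = 0.438), but its Cre Naïve arrays stood at 8.83 and 5.63, a gap of 3.20. Among the receptors, Nrp2, a co-receptor of class 3 semaphorins and of vascular growth factors, had 8.84 and 8.32 in Cre Recurred, against 9.98 and 10.19 in GFP Recurred cells (log2 fold change -1.50, SE 0.47, adjusted p = 0.175). It had 10.28 and 8.66 in Cre Naïve, against 9.77 and 9.63 in GFP Naïve cells, with Cre Naïve replicate 2 among the Cre Recurred values. Nrp1, the companion co-receptor, was 0.56 (adjusted p = 0.303) at its brightest probe set and was not called there, but it was called at each of its other 3 probe sets, at 0.73, 0.78 and 0.61. The 4 probe sets of Nrp2 were all negative, from -1.50 to -0.27, and 2 of them were called. The neuropilins therefore differed in sign, though Nrp1 was not called at its brightest probe set. Of 6 plexins, 0 were called. Plxnb2 was the nearest at -0.55 (1.47-fold, adjusted p = 0.177), followed by Plxnd1, the receptor of Sema3e, at 0.50 (adjusted p = 0.334), while Plxna1, Plxna2, Plxnb1 and Plxnc1 gave 0.06, 0.47, 0.00 and 0.21.

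Slits and netrins were lower in Cre Recurred than in GFP Recurred cells, apart from Slit1. Slit2, a secreted repellent made by many mesenchymal cells, had 9.96 and 10.58 in Cre Recurred, against 11.23 and 11.31 in GFP Recurred cells. It had 11.29 and 10.74 in Cre Naïve, against 10.99 and 11.22 in GFP Naïve cells, so both Cre Recurred arrays were the lowest. This was a log2 fold change of -1.01 (SE 0.26, adjusted p = 0.116), and its other 2 probe sets gave -1.05 and -0.84. Slit3 had 8.35 and 10.15 in Cre Recurred, against 11.17 and 11.43 in GFP Recurred cells. It had 11.20 and 9.81 in Cre Naïve, against 10.74 and 10.49 in GFP Naïve cells, with Cre Naïve replicate 2 between the Cre Recurred values. The Slit3 difference of -2.05 (SE 0.62, adjusted p = 0.163) was -1.15 when Cre Recurred replicate 1 was left out and -2.95 when replicate 2 was left out instead. Slit1 gave 0.09 (adjusted p = 0.856 from limma), and the dim receptors Robo1 and Robo2 gave -0.17 and 0.19. Of the 3 probe sets of Robo1, all dim, only the brightest was negative. The highest gave 1.13, and 0 of the 3 were called.

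Ntn1, the founding netrin, which attracts or repels growing axons, had 7.40 and 8.54 in Cre Recurred, against 10.00 and 10.17 in GFP Recurred cells. Its Cre Naïve arrays were 9.93 and 7.80, against 9.99 and 10.81 in GFP Naïve cells, and Cre Naïve replicate 2 lay within the range of the Cre Recurred arrays. This gave a log2 fold change of -2.12 (SE 0.69, adjusted p = 0.187), the lowest among the 47 members at their brightest probe sets, and a dimmer probe set gave -0.20. Ntn4, a netrin of basement membranes, had 5.10 and 5.60 in Cre Recurred, against 6.68 and 6.75 in GFP Recurred cells (log2 fold change -1.36, SE 0.24, adjusted p = 0.060). Cre Naïve cells had 5.55 and 5.32 and GFP Naïve cells 6.15 and 5.57, so the GFP Recurred arrays stood above the other 6. The dimmer probe set of Ntn4 gave -0.22 between the recurred populations and was not called. The netrin receptors Unc5b, Unc5c and Dcc gave 0.59, -0.29 and 0.29, with adjusted p values of 0.599, 0.469 and 0.422.

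**Figure D4:**
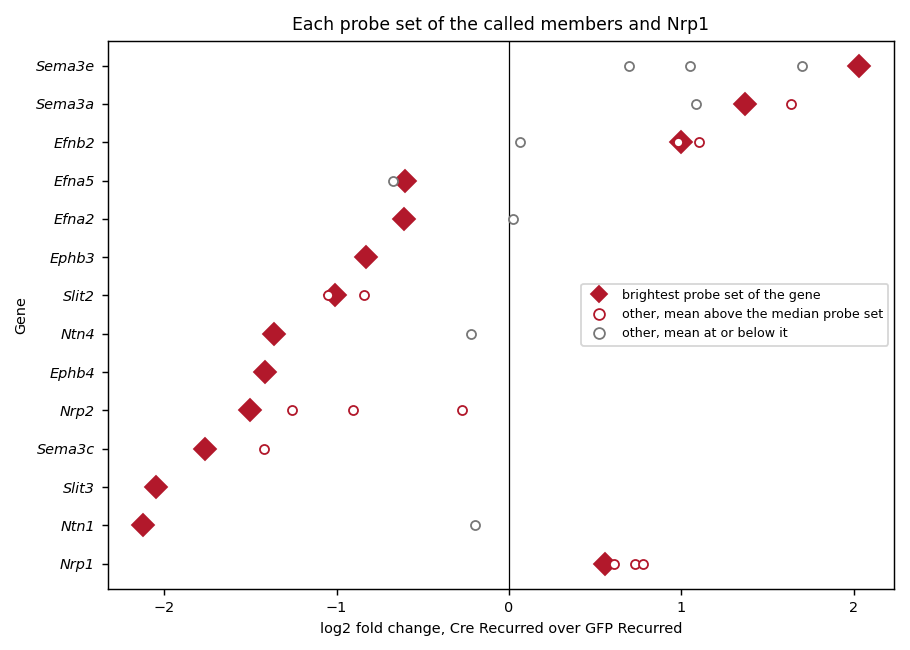
Log2 fold change of Cre Recurred over GFP Recurred cells at every probe set of the 13 called members and of Nrp1, with the brightest probe set of each gene as a filled diamond and others as circles (grey where the mean is at or below the median probe set). Of the 18 other probe sets of the called members, 17 have the sign of the brightest.

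Across probe sets, 10 of the 13 called members had more than 1, and 17 of their 18 other probe sets had the same sign as the brightest, 9 of them past the study's thresholds. The exception in sign was Efna2. Ephb3, Ephb4 and Slit3 had a single probe set each. The median log2 fold change between the recurred populations was 0.01 for ligands and 0.06 for receptors, against 0.04 for all genes, with 13 ligands positive and 13 negative and 12 receptors positive and 9 negative. Among genes with a mean above the median probe set, the medians were -0.27 for ligands, 0.11 for receptors and 0.01 for all such genes. These medians were not tested. Among ligands the fold changes ran from -2.12 to 2.03 and among receptors from -1.50 to 0.90. Without overlap between the 2 Cre Recurred and the 2 GFP Recurred arrays were 19 ligands (9 higher and 10 lower) and 12 receptors (6 higher and 6 lower), 31 of 47 in all, where 55% of all genes did not overlap (31.7% higher and 23.4% lower).

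Recurrence of RB-deficient cells was compared next, Cre Recurred with Cre Naïve. At the study's thresholds 0 of 47 members were called in limma, where 1.65% of all genes were called, and 8 members had an unadjusted p under 0.05, beside 14% of all genes. The SAM-type statistic, built after the method the study names, called 0 as well. The smallest adjusted p was that of Sema3a, 0.254 for a log2 fold change of 1.24 (SE 0.28), both Cre Recurred arrays being above both Cre Naïve arrays. The dimmest of its 3 probe sets was called in this comparison (1.22, adjusted p = 0.193), the sole member probe set that was, and the other gave 1.47 (adjusted p = 0.265). At its brightest probe set Sema3a was called with a trended and robust prior, without dim probe sets and without probe sets shared between transcripts. It was also called with the probe sets of a gene averaged, and each of these settings called no other member. The share of all genes called under these settings was not computed, so these calls have no background beside them. Ephb3 (-0.85), Ephb4 (-0.76), Efna2 (-0.54) and Slit2 (-0.75) had adjusted p values of 0.314, 0.308, 0.328 and 0.359, and on each of them the Cre Recurred arrays lay below the Cre Naïve ones. Dcc, an axon guidance receptor for netrins, had 5.75 and 5.91 in Cre Recurred, against 5.28 and 5.55 in Cre Naïve cells, and 5.64 and 5.45 in GFP Recurred, against 5.4 and 5.64 in GFP Naïve cells. Its log2 fold change was 0.42 (adjusted p = 0.386). Without Cre Naïve replicate 2, the array closest to Cre Recurred replicate 2, 8 members were called (Sema3a, Sema5a, Sema7a, Nrp2, Ephb3, Ephb4, Slit2 and Ntn1), beside 8.06% of all genes, and without Cre Recurred replicate 2 there were 7, beside 7.73% of all genes. Median log2 fold changes were -0.03 for ligands, 0.05 for receptors and 0.05 for all genes.

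In RB-proficient cells, GFP Recurred against GFP Naïve, 0 of 47 members were called in limma, beside 0.0165% of all genes, and 5 had an unadjusted p under 0.05, beside 5.93% of all genes. Efnb2 had the smallest adjusted p (log2 fold change -1.10, SE 0.23, adjusted p = 0.735), and Sema3e the lowest log2 fold change (-1.96, SE 0.51, adjusted p = 0.862). On both genes the GFP Recurred arrays lay below the GFP Naïve ones. The SAM-type statistic called 3 members, Sema3e, Efnb2 and Sema5a (1.97). The share of all genes called by that statistic was not computed, so this count has no background beside it. Ntn4 gave 0.86 and Efna2 0.55 (adjusted p = 0.871 for both), and Ephb4 gave 0.41 (adjusted p = 0.871). Of the dim Eph receptors, Epha5 had 3.23 and 3.33 in GFP Recurred, against 3.64 and 3.62 in GFP Naïve cells, and 3.23 and 3.35 in Cre Recurred, against 3.29 and 3.34 in Cre Naïve cells (-0.35, adjusted p = 0.871). Epha4 had 3.85 and 4.19 in GFP Recurred, against 4.65 and 5.02 in GFP Naïve cells, and 4.13 and 4.79 in Cre Recurred, against 3.85 and 4.79 in Cre Naïve cells (-0.81, adjusted p = 0.871). The median was 0.05 for ligands, -0.11 for receptors and 0.01 for all genes.

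Deletion of Rb alone, Cre Naïve against GFP Naïve, gave 0 calls among the 47 members and 0% among all genes in limma, and 0 calls by the SAM-type statistic. Rb1 itself was not called here, with a log2 fold change of -2.06 (SE 0.26, adjusted p = 0.997), so the absence of calls does not show that deletion left these genes unchanged. An unadjusted p under 0.05 was found for 3 members, beside 2.45% of all genes. These were Efna2 (0.47), Sema3c (-0.95) and Epha5 (-0.31), and all their adjusted p values were 0.997. Ntn1 gave -1.53 (SE 0.69), which became -0.46 without Cre Naïve replicate 2 and -2.60 without Cre Naïve replicate 1. Epha4 gave -0.52. Unc5c, a receptor that turns netrin into a repellent, had 6.01 and 5.89 in Cre Naïve, against 6.43 and 6.25 in GFP Naïve cells, and 5.93 and 5.53 in Cre Recurred, against 5.91 and 6.13 in GFP Recurred cells. Its log2 fold change between naïve cells was -0.39 (SE 0.17). The medians were -0.09 for ligands, 0.00 for receptors and 0.00 for all genes.

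**Figure D5:**
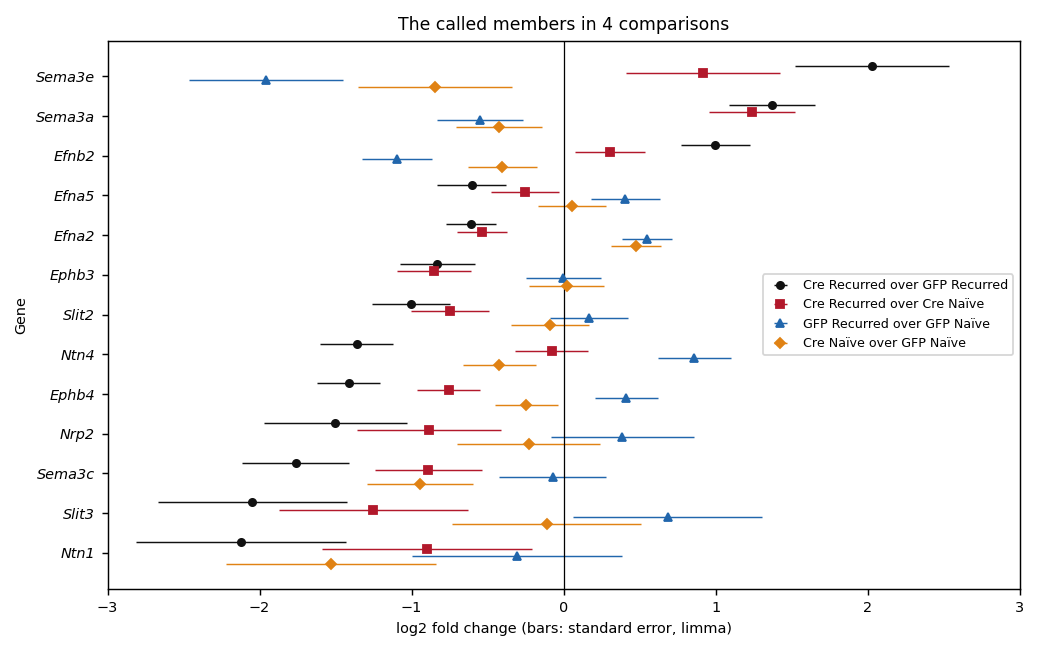
Log2 fold changes (horizontal axis, bars for the standard error from limma) of the 13 members called between the recurred populations, in that comparison (black), Cre Recurred over Cre Naïve (red), GFP Recurred over GFP Naïve (blue) and Cre Naïve over GFP Naïve (orange). The comparisons share arrays, so their values are not independent, and Sema3e, for example, reads 2.03, 0.92, -1.96 and -0.85.

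Whether recurrence acted differently on the guidance genes without and with RB was tested as an interaction, the log2 fold change of recurrence in Cre cells minus that in GFP cells. At the study's thresholds 0 of 47 members were called, beside 0.539% of all genes, and 9 members had an unadjusted p under 0.05, beside 12.4% of all genes. With the replicate number as a block, 2 members were called, Sema3e and Efna2, beside 0.61% of all genes. No SAM-type statistic was computed for the interaction. The smallest adjusted p was that of Efna2 (-1.08, SE 0.23, adjusted p = 0.289 from limma), whose signal was lower in recurred than in naïve Cre cells and higher in recurred than in naïve GFP cells, without overlap in either. Sema3a (1.79, adjusted p = 0.312), Efnb2 (1.40, 0.315), Sema3e (2.87, 0.334) and Ephb4 (-1.17, 0.334) followed. Ephb3 gave -0.85 (adjusted p = 0.474). Plxnb2, a plexin of membrane semaphorins, had 10.27 and 10.67 in Cre Recurred, against 10.91 and 10.92 in Cre Naïve cells, and 11.03 and 11.02 in GFP Recurred, against 10.60 and 10.92 in GFP Naïve cells, an interaction of -0.71 (adjusted p = 0.412). Without Cre Recurred replicate 2 the interaction was called for 9 members (8.1% of all genes), without Cre Naïve replicate 2 for 6 (4.86%) and without GFP Naïve replicate 2 for 1, Efna1 (1.14%), and no other left-out array gave a call. The medians were -0.06 for ligands and 0.10 for receptors, against 0.04 for all genes.

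Genes of the same pathways outside the 47 were read in the same way, with 11.4% of all genes and 16.2% of those above the median probe set called between the recurred populations. Of 14 other guidance ligands, 2 were called between Cre Recurred and GFP Recurred cells, Sema3g (0.65, adjusted p = 0.202) and Ntn3 (-0.77, adjusted p = 0.109), both with means below the median probe set. Of 14 other receptors, 1 was called, Epha1, a receptor of A ephrins. It had 5.08 and 5.17 in Cre Recurred, 6.13 and 5.75 in Cre Naïve, 5.98 and 6.0 in GFP Recurred and 6.58 and 6.56 in GFP Naïve cells, and it was lower in Cre Recurred than in GFP Recurred (-0.87, adjusted p = 0.060) and than in Cre Naïve cells (-0.82, adjusted p = 0.180). Of 38 signal mediators, the cytoplasmic partners that carry guidance signals to the cytoskeleton, 6 were called between the recurred populations, 2 higher and 4 lower. The exchange factor Ngef, which acts below Eph receptors, was higher (2.24, adjusted p = 0.202), with Cre Naïve arrays of 4.81 and 7.30, and so was the kinase Fyn (0.71, adjusted p = 0.249). Tiam1, an activator of Rac, was lower (-1.70, adjusted p = 0.071), as were Farp2, which acts below plexin A (-1.03, adjusted p = 0.116), Limk1, the kinase of cofilin (-0.85, adjusted p = 0.138), and Arhgef12, an exchange factor below plexin B (-0.59, adjusted p = 0.204). Tiam1 was also lower in Cre Recurred than in Cre Naïve cells (-1.69, adjusted p = 0.199). In the other 3 comparisons 0 genes of these lists were called in limma. The genes with the smallest p there were Epha1 (-0.57) and Sema4g (0.46) between GFP Recurred and GFP Naïve cells, Epha1 (-0.63) and Mical1 (0.87) between Cre Naïve and GFP Naïve cells, and Arhgap35 (-0.58) and Ntn3 (-0.80) in the interaction, for which 6 of 38 mediators had an unadjusted p under 0.05, beside 12.4% of all genes.

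Markers of cell identity differed between the recurred populations as well, where 11.4% of all genes and 16.2% of those above the median probe set were called. Of the 12 fibroblast markers, 11 had a negative log2 fold change in Cre Recurred against GFP Recurred cells, with a median of -0.76 beside 0.04 for all genes. In limma 7 had an unadjusted p under 0.05, beside 20.7% of all genes. Their mean signal was 10.5 on Cre Recurred replicate 1 and 11.4 on replicate 2, the latter within the range of the naïve arrays. At the study's thresholds 3 were lower, Fap (-2.39), Dcn (-1.60) and Prrx1 (-1.05), and Thy1 was higher (0.91). Against Cre Naïve cells 11 of the 12 were again negative, with a median of -0.68, and 0 were called. Of the 10 mesothelial markers, Msln (1.71), Krt19 (1.97) and Krt7 (1.02) were higher and Bnc1 (-5.05) was lower. Msln (2.14) and Krt7 (0.76) were also called higher in Cre Recurred than in Cre Naïve cells, where 1.65% of all genes were called. Of the smaller lists, 0 of 8 endothelial, 0 of 8 macrophage and blood cell, 0 of 6 Schwann and nerve and 0 of 6 epithelial markers were called, 1 of 8 muscle markers was higher (Des) and 1 of 5 adipocyte markers was lower (Pparg). In bulk RNA, fewer cells of a type and less RNA per cell cannot be told apart, and the part of these markers in the differences of the guidance genes was not tested.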

How the data were processed

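Total RNA of 4 populations of p53DD fibroblasts was measured on Affymetrix mouse expression arrays, 2 per population. The authors deposited log2 signals made with RMA, which corrects background, normalizes quantiles between arrays and summarises the probes of a probe set; its software version is not given in the sources used here. The values were used as deposited. Of 45101 probe sets, 64 controls were left out and 45037 tested, of which 34945 carried 1 gene symbol in the array annotation. The members and all lists were chosen with earlier results of these data known.

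All comparisons came from 1 linear model in limma 3.58.1 under R 4.3.3 (residual degrees of freedom 4, prior 3.07) and adjusted by Benjamini-Hochberg. The study used SAM at 1.5-fold and an FDR under 25%; a SAM-type statistic was run as an alternative, beside a trended and robust prior, the compared arrays only, cyclic loess, filters on dim and on shared probe sets, probe sets averaged per gene, a replicate block and leaving out each array. Per-array values are given for members called in any comparison and for up to 3 ligands and 3 receptors with the smallest p in each comparison. Promoters and gene order came from RefSeq (GRCm38.p6), with promoters for 40 of 47 members, and the array files name no build. The fit was tested on simulated data. Listed genes that the annotation gives no probe set were not analysed here. The number of arrays limits the precision. Figures were drawn with matplotlib.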

Additional observations from a re-analysis of the deposited data

How the results depend on the processing

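Between Cre Recurred and GFP Recurred cells the number of members called at the study's thresholds was 11 to 17 under the 8 alternatives other than leaving out an array (11 with a trended and robust prior, 17 by the SAM-type statistic), and 0 to 14 with 1 array left out. At the stricter threshold it was 6 by the SAM-type statistic, 5 with the compared arrays only, 0 with the replicate block and 0 to 2 with 1 array left out, against 1. Between Cre Recurred and Cre Naïve cells 1 member was called instead of 0 with a trended and robust prior, without dim probe sets, without shared probe sets and with probe sets averaged, and 0 to 8 with 1 array left out. Between GFP Recurred and GFP Naïve cells the SAM-type statistic called 3 instead of 0. For the interaction 2 were called with the replicate block (Sema3e and Efna2) and 0 to 9 with 1 array left out. The causes were not tested, other than that a population with 1 array left is assumed to vary like the others. Under the alternatives, the share of all genes was computed only at the study's thresholds, for the replicate block and the left-out arrays. The other counts have no such share beside them and are not read as a result about the members. Same-numbered arrays had correlations of their deviations from -0.25 to 0.31, so the numbers were not taken as pairs, and the block changed no other count of calls by over 1.5 times.

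The median log2 fold changes, from -0.11 to 0.10 in the main fit, moved as follows. For Cre Recurred against Cre Naïve cells the ligands gave -0.10 without shared probe sets and -0.18 to 0.052 with 1 array left out, and the receptors gave -0.015 with cyclic loess, -0.011 without dim probe sets, -0.026 without shared probe sets, -0.056 with probe sets averaged and -0.15 to 0.10 with 1 array left out. For GFP Recurred against GFP Naïve cells the ligands gave 0.12 without dim probe sets and 0.014 to 0.12 with 1 array left out, and the receptors -0.14 to -0.032. For Cre Recurred against GFP Recurred cells the ligands gave -0.27 without dim probe sets, -0.15 without shared probe sets, -0.093 with probe sets averaged and -0.051 to 0.0082 with 1 array left out, and the receptors 0.16 with probe sets averaged and -0.0091 to 0.10 with 1 array left out. For Cre Naïve against GFP Naïve cells the ligands gave -0.10 to -0.0061 with 1 array left out, and the receptors -0.10 without shared probe sets, -0.065 with probe sets averaged and -0.088 to 0.0047 with 1 array left out. For the interaction the ligands gave -0.18 to 0.023 with 1 array left out, and the receptors 0.19 with probe sets averaged and -0.072 to 0.20 with 1 array left out. Of 576 values of 37 results for single members under these alternatives, 512 kept their direction and side of the threshold, 41 kept the direction and lost the call, 23 kept the direction and gained it, and 0 changed direction. What signal over background limits was not assessed, since no detection calls were used.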
